A study of Mus musculus with 33 samples.

Results

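The 10 genes described here are the glutathione peroxidases Gpx1, Gpx2, Gpx3 and Gpx4 and the peroxiredoxins Prdx1 to Prdx6, out of 18193 genes measured on arrays of mouse liver. Each gene was read from the probe set that carries its symbol alone and has the highest mean over all columns of the deposited table. That rule gave values for 7 of the 10 genes, namely all 4 glutathione peroxidases and 3 of the 6 peroxiredoxins. All 5 probe sets of Prdx1 also carry the symbol of a predicted gene, Gm21399, so Prdx1 is given no value, and Prdx5 and Prdx6 are unnamed in the probe annotation used here. Probe sets were thus chosen by their mean level over all columns, tumours included, and by no test between groups. The chosen probe sets averaged 14.16 for Gpx1, 5.32 for Gpx2, 7.43 for Gpx3, 11.96 for Gpx4, 10.88 for Prdx2, 10.76 for Prdx3 and 11.79 for Prdx4, levels that cannot be ranked between probe sets. For Gpx4 the choice was close, since its other probe set averaged 11.94, and it was not independent of the tumour values.

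RNA came from livers of mice aged 12 months, of a mixed background labelled FVB/NT, 129S1/Svlmj and C57BL/6NT. The groups were 7 samples of normal wildtype liver (wt), 5 of normal liver with an E2f3a knock-out (3aKO), and spontaneous hepatocellular carcinomas, 5 with an E2F1 knock-in (1KI) and 4 with an E2F3b knock-in (3bKI). Every knock-in sample was a tumour and every wt and 3aKO sample was normal liver, so genotype and tumour cannot be told apart. The wt and 3aKO arrays appear with the 1KI arrays in normalization 1 and again with the 3bKI arrays in normalization 2, so all tumour comparisons share the same controls and 1KI was not set against 3bKI.

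Glutathione peroxidases and peroxiredoxins are the main enzymes that reduce hydrogen peroxide and lipid hydroperoxides in the liver. Glutathione peroxidases of this group carry selenocysteine, an amino acid inserted at a UGA codon by a dedicated machinery, and draw electrons from glutathione. Peroxiredoxins use a cysteine in the active site, which in Prdx1 to Prdx3 is recharged by thioredoxin and, after over-oxidation, by sulfiredoxin. Prdx6, with a single active cysteine, is instead reduced with glutathione. Gpx4 reduces phospholipid hydroperoxides within membranes and is known for holding back ferroptosis, a form of cell death driven by lipid peroxidation.

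Values are log2 expression values as deposited, and differences are therefore log2 ratios. The highest value of an array lay between 14.90 and 15.04 in normalization 1. On the leading principal component of normalization 1, which held 32.3% of the variance, 1KI replicates 3 and 4 scored 61.0 and 69.8, while all other arrays lay between -17.0 and 5.08. E2f3 had means of 6.84 ± 0.18 in wt (SD, n = 7), 6.64 ± 0.21 in 3aKO (SD, n = 5) and 7.41 ± 0.28 in 1KI (SD, n = 5). E2f1 had means of 6.02 ± 0.15 in wt, 6.05 ± 0.13 in 3aKO and 6.19 ± 0.24 in 1KI. In normalization 2, E2f3 averaged 6.71 ± 0.19 in wt, 6.51 ± 0.22 in 3aKO and 6.82 ± 0.20 in 3bKI (SD, n = 4). It is not known here whether these probe sets lie within the parts of the genes that were altered. The labelled tissue was checked against 8 hepatocyte markers, all of which were measured. Their mean level per array was 13.75 to 13.95 in wt and 12.99 to 13.86 in 1KI, and in normalization 2 it was 13.70 to 13.92 in wt and 13.46 to 13.70 in 3bKI. The 7 markers of stellate cells and fibroblasts had mean levels per array of 7.37 to 7.91 in wt and 8.04 to 8.42 in 1KI, and of 7.28 to 7.80 in wt and 7.88 to 8.57 in 3bKI, without overlap between tumours and wt in either normalization. The 3aKO livers reached 8.12 in normalization 1 and 8.03 in normalization 2 and overlapped with the tumours. These are bulk samples, in which fewer cells of a type and less RNA per cell cannot be told apart, and the part that cell makeup has in the values of the 7 genes was not tested.

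The promoters of 3 members are printed because Gpx4 was the member called in both tumour groups, Gpx3 had the largest fitted difference and Gpx1 had the largest ratio of the SD among tumours to the SD among wt livers. They come from RefSeq on build GRCm38.p6, run from 250 bases before to 50 bases after an annotated start on the plus strand, and show GC boxes (GGGCGG on either strand) and CCAAT boxes (CCAAT on either strand) in capitals. Gpx4 has 4 annotated starts, of which the second is shown, at chr10:80053315-80053614. The Gpx3 window is chr11:54902604-54902903 and the Gpx1 window is chr9:108338830-108339129.
Gpx4: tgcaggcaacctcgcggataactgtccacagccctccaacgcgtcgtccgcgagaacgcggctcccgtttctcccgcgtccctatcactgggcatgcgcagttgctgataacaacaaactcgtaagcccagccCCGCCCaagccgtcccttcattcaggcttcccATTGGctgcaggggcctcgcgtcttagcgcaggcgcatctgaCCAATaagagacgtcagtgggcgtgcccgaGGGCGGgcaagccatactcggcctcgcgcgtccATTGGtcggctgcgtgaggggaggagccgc
Gpx3: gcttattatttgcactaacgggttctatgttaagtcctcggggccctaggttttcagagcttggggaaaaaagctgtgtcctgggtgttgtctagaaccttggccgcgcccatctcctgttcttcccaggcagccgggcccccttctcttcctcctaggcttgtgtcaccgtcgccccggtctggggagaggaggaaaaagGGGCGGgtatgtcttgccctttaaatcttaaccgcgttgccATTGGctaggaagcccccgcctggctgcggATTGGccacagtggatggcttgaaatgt
Gpx1: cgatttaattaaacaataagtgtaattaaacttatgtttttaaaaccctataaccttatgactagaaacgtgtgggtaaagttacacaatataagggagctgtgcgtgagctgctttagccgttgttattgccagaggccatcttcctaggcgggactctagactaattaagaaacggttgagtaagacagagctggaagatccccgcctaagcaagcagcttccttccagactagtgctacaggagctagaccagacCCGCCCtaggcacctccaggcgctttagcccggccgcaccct
Of the 10 members, 9 were matched to at least 1 promoter. A GC box stood in a promoter of 8 of these 9 and a CCAAT box in one of 4 of them, against 35.7% and 37.4% of the 32851 promoters in the table. Members were counted by gene, with a match in any of their promoters, and the shares by promoter, so the units differ. The promoters of Gpx4 also differed among themselves. That of the first start held no GC box and that of the fourth no CCAAT box. The E2F letters TTTCCCGC, TTTCGCGC, TTTGCCGC or TTTGGCGC, on either strand, stood in 2.26% of all promoters and in none of the 9 members. The letters TGACNNNGC, the core of the antioxidant response element, stood in 12.4% of promoters and in 1 member, Prdx1. These matches describe letters within the windows and carry no reading about a factor.

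Gpx4 was the 1 member that passed the test against wt in the tumours, and it was higher in both kinds. Gpx3 and Prdx4 had mean differences of comparable or larger size that did not pass, with wide ranges within a tumour group. Gpx2, Prdx2 and Prdx3 had mean differences from wt between -0.17 and 0.11 on the chosen probe sets, without a call. Calls were made by limma on 2 groups at a time, at a Benjamini-Hochberg adjusted p under 0.05 over all 18193 genes. In 1KI vs wt, 1 of the 7 members was called, against 0.242% of all genes, and 1 had groups that did not overlap, against 1.98% of all genes. In 3bKI vs wt, 1 of 7 was called, against 2.07%, and 1 had no overlap, against 4.28%. Each of these counts is the single gene Gpx4. Against 3aKO livers, no member was called in 1KI, where limma called 0% of genes, or in 3bKI, where it called 9.18%. At an unadjusted p under 0.05, 3 of the 7 members passed in 1KI vs 3aKO, against 14.0% of all genes, and 4 of the 7 in 3bKI vs 3aKO, against 29.1%. Against wt, 3 of the 7 passed it in 1KI and 3 in 3bKI, beside 19.0% and 20.8% of all genes. Groups did not overlap for 2 members in 1KI vs 3aKO, Gpx3 and Gpx4, against 3.41% of genes, and for 2 in 3bKI vs 3aKO, Gpx4 and Prdx2, against 15.0%. The median difference over the 7 members was 0.11 in 1KI vs wt and 0.01 in 3bKI vs wt, beside medians over all genes of -0.03 and 0.01.

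**Figure D1:**
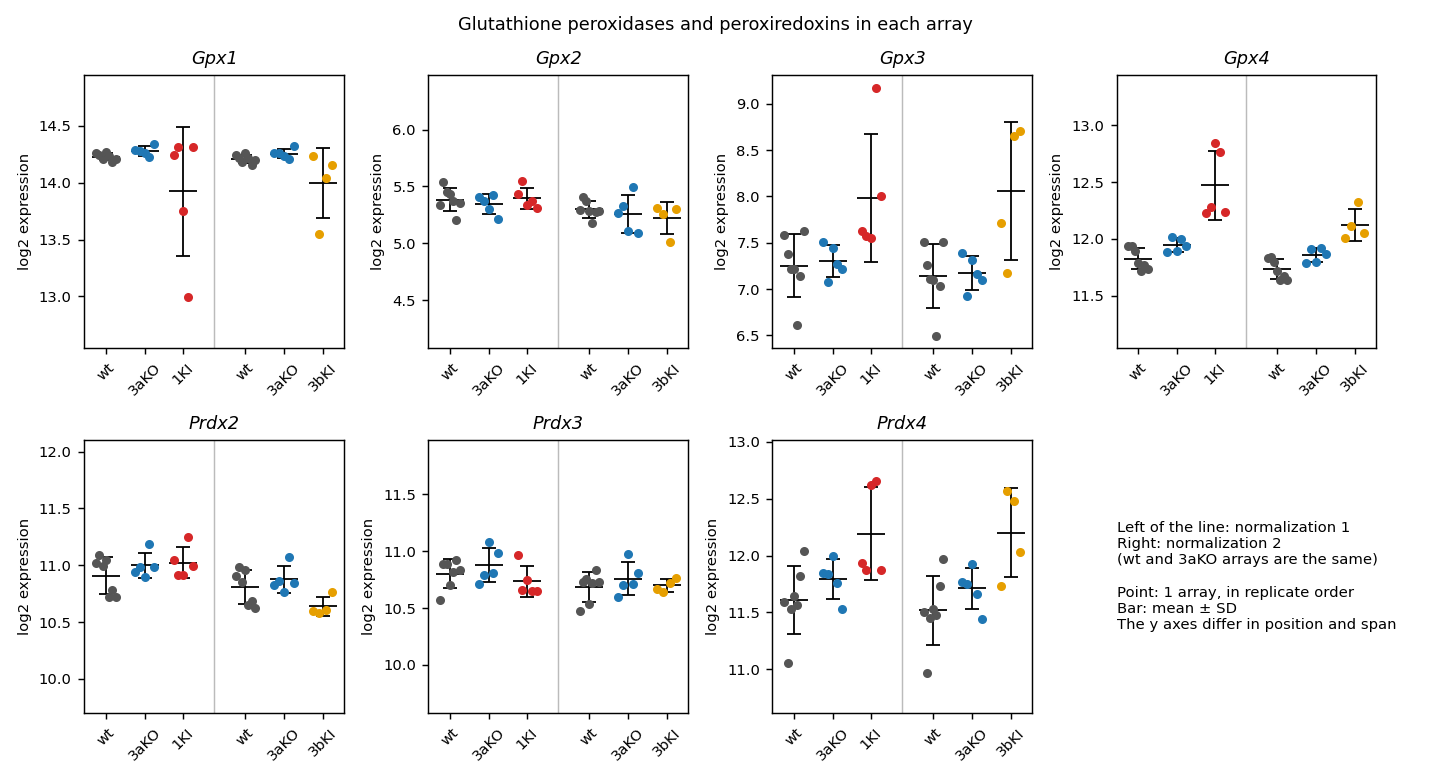
The log2 expression value of each of the 7 measured members is plotted for every array by group, with normalization 1 to the left of the grey line and normalization 2 to its right, and bars for mean ± SD. All 1KI and 3bKI tumours lie above every wt liver for Gpx4, and Gpx1 reads 12.998 in 1KI replicate 4.

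Gpx4, the phospholipid hydroperoxide peroxidase, rose in 1KI tumours against wt livers. The wt livers had values from 11.72 to 11.94 with a median of 11.79, and the 3aKO livers had 11.89, 12.02, 11.89, 12.00 and 11.94. The 1KI tumours had 12.23, 12.28, 12.84, 12.77 and 12.24. All 5 tumours lay above all 12 normal livers of normalization 1, and replicates 3 and 4 were the highest. The mean difference from wt was 0.64 ± 0.12 (SE), a 1.56-fold level with a 95% interval of 1.31 to 1.86 (limma adjusted p = 0.0477). Against 3aKO it was 0.52 ± 0.13 (adjusted p = 0.199). The call against wt was lost without any 1 of the 7 wt arrays (adjusted p = 0.0817 to 0.111) and without 1KI replicate 3 (0.0920), 4 (0.0921) or 5 (0.0516). Without replicates 3 and 4 together the difference was 0.42 ± 0.08 (adjusted p = 0.0662), with all 3 remaining tumours above every wt liver.

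In 3bKI tumours Gpx4 also rose against wt. In normalization 2 the wt livers ran from 11.64 to 11.84 with a median of 11.72, and the 3aKO livers had 11.79, 11.92, 11.79, 11.92 and 11.87. The 3bKI tumours had 12.01, 12.11, 12.32 and 12.05. All 4 tumours lay above all normal livers, replicate 3 farthest. The mean difference from wt was 0.39 ± 0.08 (SE), or 1.31-fold with a 95% interval of 1.16 to 1.48 (limma adjusted p = 0.0364). Against 3aKO it was 0.26 ± 0.08 (adjusted p = 0.0724). The call against wt was lost without 3bKI replicate 2 (adjusted p = 0.0786), 3 (0.105) or 4 (0.0672), and without wt replicate 1, 2, 3, 4 or 5 (0.0547 to 0.0753). In order of mean level, wt came first, 3aKO next and the tumours last in each normalization, and the neighbours wt and 3aKO overlapped, with a difference of 0.12 ± 0.06 in normalization 1 (adjusted p = 0.692).

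Gpx4 has another probe set, whose name ending (_x_at) marks probes that may match further transcripts. It read 12.13, 12.21, 12.64, 12.55 and 12.07 in the 1KI tumours, beside 11.61 to 11.96 in wt. In 3bKI it read 12.06, 12.22, 12.32 and 12.08, beside 11.54 to 11.89 in wt. Tumours and wt did not overlap on this probe set either. In a limma fit of all 45037 probe sets that are not array controls, its difference from wt was 0.49 ± 0.11 in 1KI (adjusted p = 0.0984). In 3bKI it was 0.43 ± 0.09 from wt (adjusted p = 0.0467) and 0.33 ± 0.08 from 3aKO (adjusted p = 0.0403), both calls. In that same fit the chosen probe set had an adjusted p of 0.0517 in 1KI vs wt and 0.0443 in 3bKI vs wt. Its mean was the higher of the pair in 1KI (12.47 against 12.32) and the lower in 3bKI (12.12 against 12.17). In wt of normalization 1 both probe sets averaged 11.83. The choice by the mean over all columns thus drew on the 1KI values.

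For beta-actin the array holds control probe sets near each end of the transcript, and the 3' value minus the 5' value is a sign of RNA integrity. It was 0.70 to 0.87 in the 3bKI tumours, 0.65 to 1.37 in wt and 1.06 to 1.35 in 3aKO. With this difference as a covariate Gpx4 in 3bKI vs wt was 0.47 ± 0.10 (limma adjusted p = 0.192), and 0 of all genes were called. Sex read from the arrays gave 3 females and 4 males in wt, and 3 females and 1 array of unclear sex, replicate 2, in 3bKI. With sex as a covariate and without that array, the difference was 0.36 ± 0.11 (adjusted p = 0.227).

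**Figure D2:**
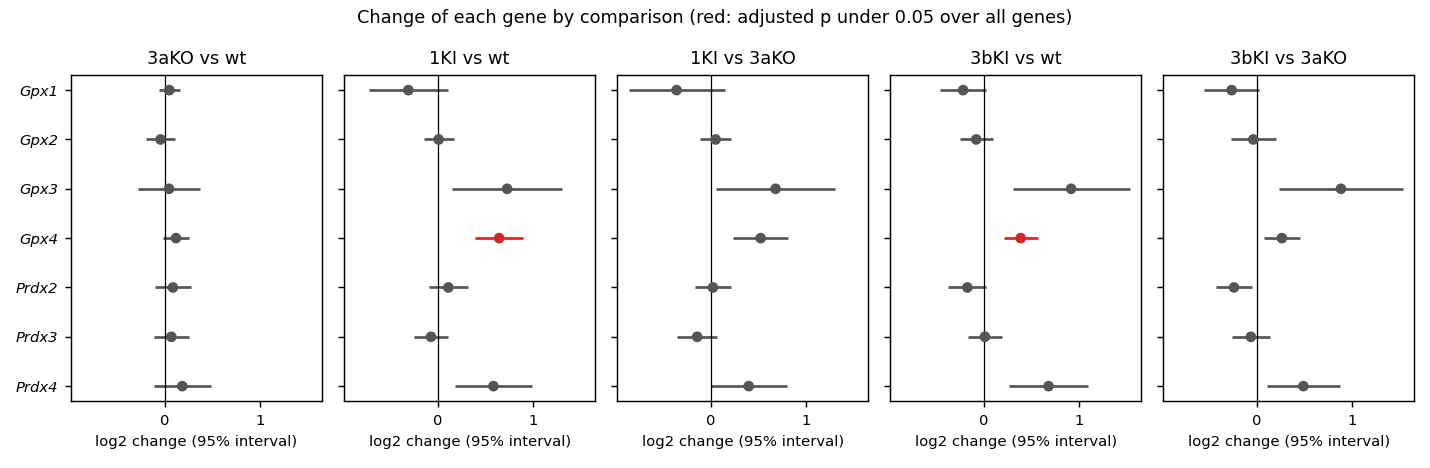
The fitted log2 difference of each measured member is plotted for the 5 comparisons, with bars for the 95% confidence interval. The Gpx4 intervals in 1KI vs wt and 3bKI vs wt lie above 0, and the Gpx1 and Gpx3 intervals in the tumours are wider than those of Gpx2, Prdx2 and Prdx3.

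Gpx1, the glutathione peroxidase of the cytosol and mitochondria, had a wide spread among tumours relative to wt. The wt livers lay between 14.18 and 14.27 with a median of 14.24, and the 3aKO livers had 14.29, 14.28, 14.26, 14.23 and 14.34. The 1KI tumours had 14.24, 14.31, 13.75, 12.998 and 14.31. Of these, 3 tumours lay within or just above the range of the wt livers and replicates 3 and 4 lay below every normal liver. The SD among 1KI tumours was 0.57, which is 18.2 times the small SD of 0.031 among wt livers. The median ratio over all genes was 1.06. The wt values also lay close to the highest value of an array, 14.90 to 15.04, and the part this has in the ratio was not tested. Without replicate 4, left out after its value was seen, the ratio was 8.67. The mean difference from wt was -0.31 ± 0.19 (SE; limma adjusted p = 0.385). Without 1KI replicate 4 it was -0.07 ± 0.10 (adjusted p = 0.767), and without replicates 3 and 4 it was 0.06 ± 0.06 (adjusted p = 0.774), on the other side of 0. The same 2 arrays had the lowest hepatocyte marker means of the 1KI group, 13.51 and 12.99.

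Among the 3bKI tumours Gpx1 read 14.23, 13.55, 14.04 and 14.16, beside 14.15 to 14.26 in wt with a median of 14.22. Replicates 2 and 3 lay below every wt liver, and the other two lay inside the wt range. The SD was 0.31, which is 8.32 times the 0.037 of wt, beside a median ratio of 0.975 over all genes. Without replicate 2 it was 2.60 times that of wt. The mean difference was -0.21 ± 0.11 from wt (limma adjusted p = 0.301) and -0.26 ± 0.13 from 3aKO (adjusted p = 0.209). Without 3bKI replicate 2 the difference from wt was -0.07 ± 0.07 (adjusted p = 0.694). Hepatocyte marker means were lowest in the same replicates 2 and 3, at 13.46 and 13.47.

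Gpx3, the glutathione peroxidase that is secreted into plasma, had the largest fitted difference of the members, without a call. The wt livers ran from 6.61 to 7.63 with a median of 7.22 in normalization 1, and the 3aKO livers had 7.51, 7.07, 7.44, 7.28 and 7.21. The 1KI tumours had 7.62, 7.57, 7.55, 9.17 and 8.002. Replicate 4 was the highest, replicate 5 was also above every normal liver, and the other 3 overlapped with wt but not with 3aKO. The mean difference was 0.73 ± 0.27 from wt (SE; limma adjusted p = 0.193) and 0.68 ± 0.28 from 3aKO (adjusted p = 0.328). Without replicate 4 the difference from wt was 0.43 ± 0.17 (adjusted p = 0.339).

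In 3bKI tumours Gpx3 read 7.71, 7.17, 8.65 and 8.70, beside 6.50 to 7.50 in wt with a median of 7.11 and 6.93 to 7.39 in 3aKO. Replicates 1, 3 and 4 lay above every normal liver, and replicate 2 lay inside both control ranges. The mean difference was 0.92 ± 0.28 from wt, a 1.89-fold level with a 95% interval of 1.23 to 2.89 (limma adjusted p = 0.103), and 0.88 ± 0.29 from 3aKO (adjusted p = 0.0802). Without replicate 2 Gpx3 was called against wt, at 1.21 ± 0.24 (adjusted p = 0.0461), and against 3aKO, at 1.18 ± 0.22 (adjusted p = 0.0268). It was also called with all 3 groups in the fit (adjusted p = 0.0440 against wt) and with array weights (0.0390). Replicates 3 and 4 were the highest in the stellate cell and fibroblast markers as well, at 8.50 and 8.57, and replicate 2 was the lowest, at 7.88. The 1KI tumours went the other way. There, replicates 4 and 5, the highest in Gpx3, had the lowest means of these markers, 8.16 and 8.04. The highest was 8.42, in 1KI replicate 2.

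Gpx2, the glutathione peroxidase of the gut epithelium, had low and level values. The wt livers ran from 5.21 to 5.54 with a median of 5.37, and the 1KI tumours had 5.43, 5.54, 5.33, 5.37 and 5.31. The 3bKI tumours had 5.31, 5.26, 5.01 and 5.31, beside 5.18 to 5.41 in wt. All groups overlapped. The mean difference from wt was 0.01 ± 0.07 in 1KI (95% interval -0.14 to 0.17, limma adjusted p = 0.942) and -0.08 ± 0.08 in 3bKI (-0.25 to 0.09, adjusted p = 0.614). The sign in 1KI vs wt turned when each array was centred on its median (-0.03).

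Prdx4, the peroxiredoxin of the endoplasmic reticulum, had higher means in the tumours that did not pass the test. The wt livers ran from 11.06 to 12.04 with a median of 11.60, and the 3aKO livers had 11.85, 11.84, 12.00, 11.76 and 11.53. The 1KI tumours had 11.94, 11.88, 12.62, 12.66 and 11.87. Replicates 3 and 4 lay above every normal liver and the other 3 lay inside the wt range. The mean difference was 0.59 ± 0.19 from wt (SE; limma adjusted p = 0.162) and 0.40 ± 0.18 from 3aKO (adjusted p = 0.355). Without replicates 3 and 4 it was 0.29 ± 0.16 from wt (adjusted p = 0.600).

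The 3bKI tumours had Prdx4 values of 11.73, 12.57, 12.48 and 12.03, beside 10.97 to 11.97 in wt with a median of 11.50. Replicates 2, 3 and 4 lay above every normal liver, replicate 4 by a small margin, and replicate 1 overlapped. The difference was 0.68 ± 0.19 from wt, a 1.60-fold level with a 95% interval of 1.21 to 2.13 (limma adjusted p = 0.0797), and 0.49 ± 0.17 from 3aKO (adjusted p = 0.0969). Prdx4 was called against wt without 3bKI replicate 1 (0.84 ± 0.19, adjusted p = 0.0381), without wt replicate 7 (0.76 ± 0.18, adjusted p = 0.0419) and with all 3 groups in the fit (adjusted p = 0.0340). Without 3bKI replicate 1 it was also called against 3aKO (0.65 ± 0.15, adjusted p = 0.0355). Prdx4 has 3 further probe sets, whose differences from wt were 0.35, 0.17 and 0.29 in 1KI and 0.36, 0.18 and 0.11 in 3bKI, none of them called.

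Prdx2, a cytosolic peroxiredoxin that is abundant in red blood cells, gave probe sets that disagreed. On the chosen one, the wt livers ran from 10.72 to 11.09 with a median of 10.99, and the 1KI tumours had 11.05, 10.91, 10.92, 11.25 and 10.99. The 3bKI tumours had 10.60, 10.58, 10.61 and 10.77, beside 10.63 to 10.98 in wt and 10.82, 10.87, 10.77, 11.07 and 10.85 in 3aKO. The 3bKI tumours lay below every 3aKO liver, replicate 4 only just, and overlapped with wt. The mean difference from wt was 0.11 ± 0.09 in 1KI (limma adjusted p = 0.510) and -0.17 ± 0.09 in 3bKI (adjusted p = 0.313), and it was -0.24 ± 0.08 in 3bKI against 3aKO (adjusted p = 0.0984).

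The other probe set of Prdx2 lay on the opposite side of the normal livers in 3bKI. It read 7.64, 5.92, 8.11 and 7.54 in the 3bKI tumours, beside 5.71 to 6.95 in wt with a median of 5.89 and 5.77 to 5.94 in 3aKO. Replicates 1, 3 and 4 lay above every normal liver, and replicate 2 lay among them. In the fit of all probe sets its difference was 1.30 ± 0.35 from wt (limma adjusted p = 0.0827) and 1.46 ± 0.35 from 3aKO (adjusted p = 0.0341), the latter a call. In 1KI it read 5.61 to 6.21, overlapping with the 5.84 to 7.13 of wt in normalization 1. With the mean of both probe sets, Prdx2 in 3bKI was 0.57 above wt and 0.61 above 3aKO. The 4 of 8 erythroid markers measured here had mean levels per array of 5.24 to 5.86 in 3bKI and 5.20 to 5.94 in wt.

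**Figure D3:**
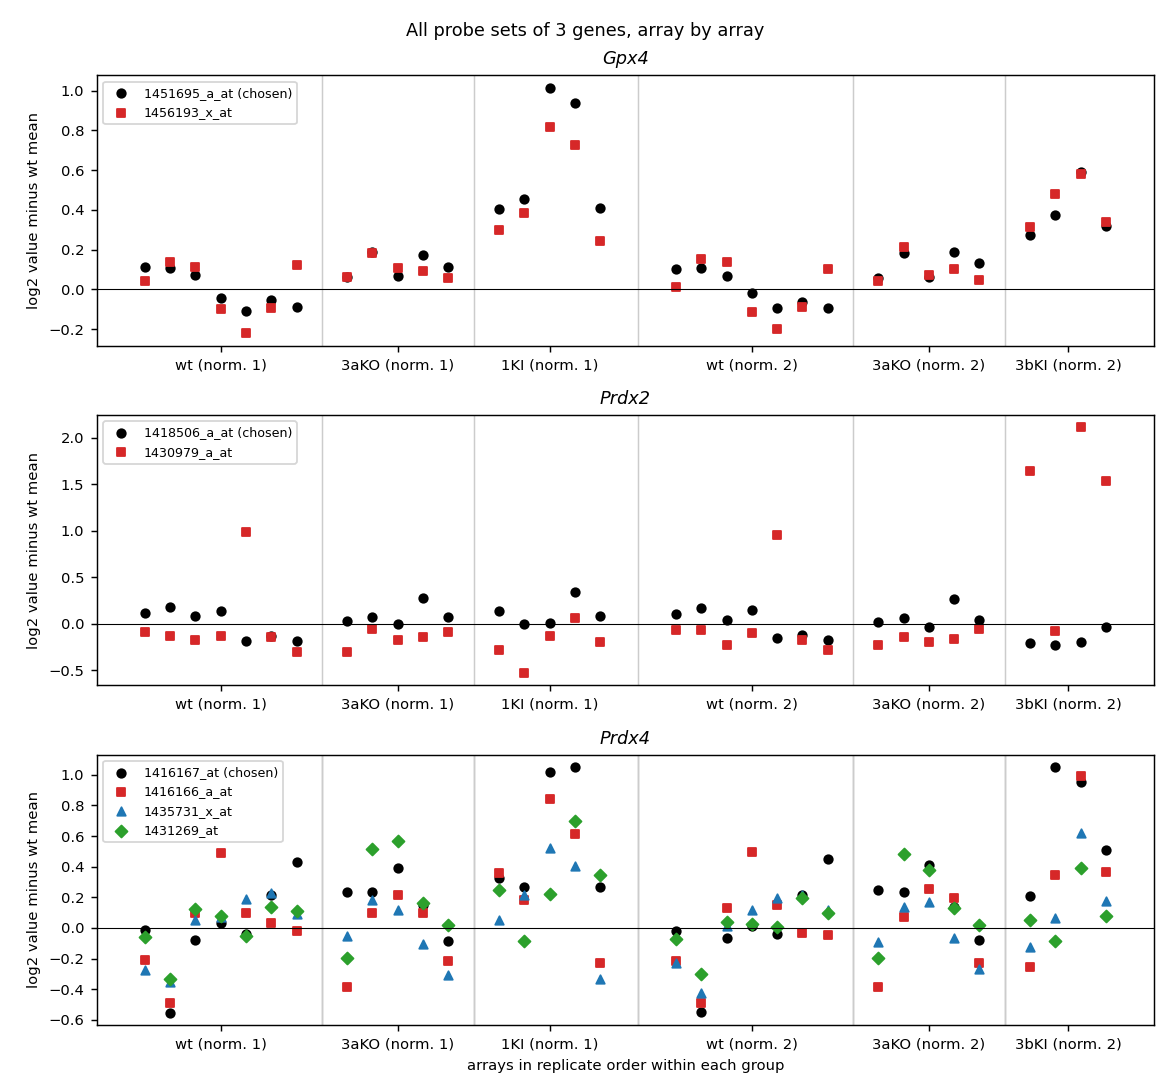
The log2 value of each array minus the wt mean is plotted for every probe set of Gpx4, Prdx2 and Prdx4, with 1 panel per gene and the arrays of each group side by side. The probe sets of Gpx4 lie together in both kinds of tumour, while those of Prdx2 part in 3bKI replicates 1, 3 and 4.

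Prdx3, the mitochondrial peroxiredoxin, did not pass the test in any comparison. The wt livers ran from 10.57 to 10.93 with a median of 10.83, and the 1KI tumours had 10.96, 10.66, 10.75, 10.65 and 10.65. The 3bKI tumours had 10.66, 10.64, 10.72 and 10.77, beside 10.47 to 10.84 in wt. Tumours and wt overlapped in both normalizations. The mean difference from wt was -0.07 ± 0.08 in 1KI (95% interval -0.25 to 0.11, limma adjusted p = 0.660) and 0.01 ± 0.08 in 3bKI (-0.16 to 0.19, adjusted p = 0.941), the latter with its sign turned when each array was centred on its median (-0.06). The SD among 3bKI tumours was 0.453 times that of wt.

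Among normal livers, loss of E2f3a was set against wt in normalization 1. No member was called in 3aKO vs wt, where limma called 0% of genes and 7.46% of genes, none of them a member, had an unadjusted p under 0.05. No member had groups without overlap, against 0.500% of all genes. The largest difference was that of Prdx4, 0.19 ± 0.14 (95% interval -0.11 to 0.49, adjusted p = 0.773), and 6 of the 7 members lay above 0. Gpx2 was the exception, at -0.04 ± 0.07 (adjusted p = 0.907). Gpx3, at 0.05 ± 0.15 (adjusted p = 0.959), turned sign without wt replicate 5 (-0.06).

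The enzymes around the peroxidases were read as 67 genes in 7 lists, of which 64 were measured. In 1KI vs wt, 2 were called higher and none lower, which is 3.12% of the lists against 0.242% of all genes, and 34 of the 64 lay above 0. Both called genes belong to the 10 genes of NRF2 and its targets, of which 9 lay above 0 with a median of 0.42. They were Nfe2l2, which encodes NRF2, the activator of antioxidant genes, at 0.75 ± 0.12 (limma adjusted p = 0.0334), and the glutathione transferase Gstm3 at 2.02 ± 0.35 (adjusted p = 0.0394). Nfe2l2 ran from 10.59 to 11.14 in 1KI and from 9.73 to 10.35 in wt, with no overlap. The Nfe2l2 call was lost without 1KI replicate 3, 4 or 5 or wt replicate 1, 2, 4, 5 or 6 (adjusted p = 0.0505 to 0.0796), and the Gstm3 call without any 1 of the 12 arrays (0.0534 to 0.0890). With the mean of a gene's probe sets both calls were lost (0.0585 and 0.0537), and Gstm3 lost its call with quantile normalization (0.0506) and with trend and robust settings (0.0566) as well. Against 3aKO none of the 64 was called in 1KI, and Nfe2l2 was at 0.71 ± 0.18 (limma adjusted p = 0.202). Its 3aKO values reached 10.73 and overlapped with 1KI. The 10 genes of the NRF2 list had a median of 0.03 in 1KI vs 3aKO, with 6 above 0. In normal 3aKO livers against wt all 10 lay above 0, with a median of 0.36. The NRF2 list does not hold every NRF2 target, since others such as Gclc and Gclm sit in the list of glutathione synthesis and reduction. Of the 8 genes measured in that list, 4 lay above 0 in 1KI vs wt (median 0.05). In 3aKO vs wt 5 of the 8 did (median 0.10).

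In 3bKI vs wt, 2 of the 64 genes were called higher and 2 lower, which is 6.25% against 2.07% of all genes. Srxn1, the sulfiredoxin that repairs over-oxidised peroxiredoxins, read 9.27, 9.51, 9.48 and 9.50 in the tumours, beside 8.22 to 8.71 in wt with a median of 8.34. All 4 tumours lay above every wt liver, with a mean difference of 1.00 ± 0.11 (limma adjusted p = 0.00503), and it was 0.72 ± 0.12 above 3aKO (adjusted p = 0.0143). Both calls held without any 1 array (adjusted p up to 0.0198 and 0.0368). The call against 3aKO was lost with sex as a covariate (0.0907), and both were lost with the beta-actin ratio. In 1KI it read 8.97, 9.38, 9.58, 11.36 and 9.03, all above the wt range of 8.34 to 8.82, without a call. The carbonyl reductase Cbr3, of the NRF2 list, was the other gene called higher, at 0.62 ± 0.12 (adjusted p = 0.0330), and lost its call without 3bKI replicate 3 or 4 or any of wt replicates 1 to 5 (0.0556 to 0.101), with quantile normalization (0.0522) and with sex (0.0953).

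The 2 genes called lower in 3bKI vs wt were Sephs2 and Msrb1. Sephs2, which makes the selenophosphate from which selenocysteine is built, read 11.60, 11.29, 11.17 and 11.48 in the tumours, beside 11.78 to 12.59 in wt and 12.34 to 12.64 in 3aKO. All 4 tumours lay below every normal liver, with differences of -0.86 ± 0.17 from wt (limma adjusted p = 0.0318) and -1.08 ± 0.11 from 3aKO (adjusted p = 0.00413). The call against 3aKO held without any 1 array (adjusted p up to 0.0171). With the mean of its probe sets Sephs2 was -0.51 from wt (limma adjusted p = 0.0263) and -0.57 from 3aKO (adjusted p = 0.0139). Both were still calls, at smaller differences than on the chosen probe set. With the beta-actin ratio as a covariate both Sephs2 calls were lost, and 0 of all genes were called. Sephs2 was then -0.53 ± 0.16 from wt (limma adjusted p = 0.345) and -0.94 ± 0.28 from 3aKO (adjusted p = 0.816). Replicates 6 and 7 of wt had the lowest wt ratios, 0.88 and 0.65, and the lowest wt Sephs2, 11.79 and 11.78. The cause was not tested. In 1KI, Sephs2 ran from 12.26 to 12.74, inside or just above the wt range of 11.87 to 12.71. Msrb1, a methionine sulfoxide reductase with selenocysteine, differed from wt by -0.34 ± 0.07 (adjusted p = 0.0364). The wt calls of Sephs2 and Msrb1 were each lost without 3bKI replicate 2, 3 or 4 or any of wt replicates 1 to 5 (adjusted p = 0.0557 to 0.0958 and 0.0605 to 0.0994), and with sex (0.231 and 0.288). Msrb1 also lost its call with quantile normalization (0.0975) and with the beta-actin ratio (0.313). Of the 10 genes of selenocysteine insertion and selenium supply, 1 was called lower and 5 lay above 0 against wt, with a median of -0.07. Of the 13 other selenoprotein genes measured, 1, Msrb1, was called lower and 7 lay above 0, with a median of 0.06. The median over all genes was 0.01.

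Against 3aKO, 2 of the 64 genes were called higher and 5 lower in 3bKI. These 7 genes are 10.9% of the lists, near the 9.18% of all genes called, so the count is no result about the lists. Gpx7, a glutathione peroxidase of the endoplasmic reticulum with cysteine in place of selenocysteine, was higher by 0.99 ± 0.23 (limma adjusted p = 0.0332), and stood at 1.18 ± 0.31 from wt (adjusted p = 0.0716). The genes called lower besides Sephs2 were Secisbp2, which binds the selenocysteine insertion element, at -0.29 ± 0.08 (adjusted p = 0.0468), the selenoprotein gene Selenoo at -0.76 ± 0.15 (adjusted p = 0.0209), the mitochondrial glutaredoxin Glrx2 at -0.42 ± 0.08 (adjusted p = 0.0197) and the cytosolic superoxide dismutase Sod1 at -0.37 ± 0.09 (adjusted p = 0.0353). Without any 1 array Glrx2 stayed called (adjusted p up to 0.0464), while Selenoo lost its call without 3bKI replicate 3 or 3aKO replicate 4 (0.0515 and 0.0516). The calls of Gpx7, Sod1 and Secisbp2 were lost without 6, 7 and 8 of the 9 arrays in turn, at adjusted p of up to 0.0742, 0.0803 and 0.0971. With sex as a covariate the calls of Gpx7 (0.150), Glrx2 (0.105), Sod1 (0.162), Selenoo (0.0898) and Secisbp2 (0.172) were lost, while that of Sephs2 held (0.0334). The call of Gpx7 was also lost with all 3 groups in the fit (0.0585). Quantile normalization ended the calls of Glrx2 (0.0620), Sod1 (0.0743) and Secisbp2 (0.176). Secisbp2 was called in 3 of 20 alternatives, and the mean of its probe sets turned its sign (0.19). In 3aKO vs wt none of the 64 genes was called, while 47 lay above 0, with a median of 0.08. All 10 genes of the NRF2 list lay above 0 there, with a median of 0.36, against 5 of 8 in glutathione synthesis and reduction. The gene of lowest p in the NRF2 list was the glutathione transferase Gsta4, at 0.48 ± 0.11 (limma adjusted p = 0.641).

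**Figure D4:**
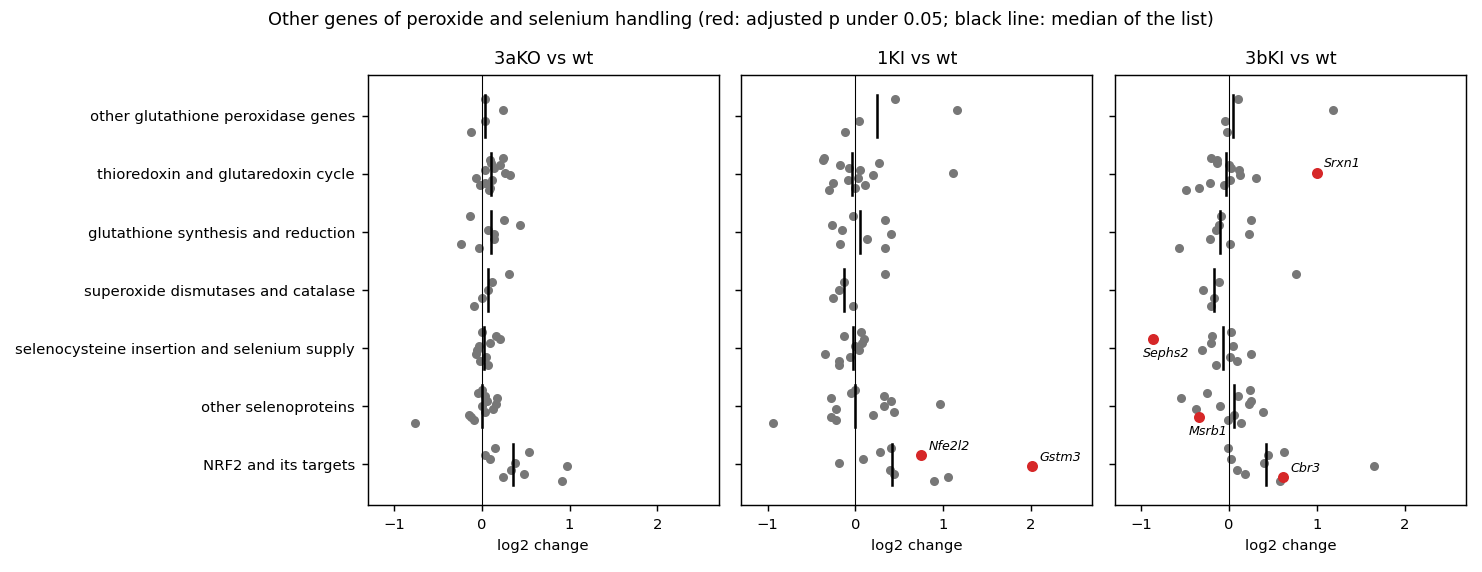
The log2 difference of each measured gene is plotted by list for 3aKO, 1KI and 3bKI against wt, with called genes in red and named and a black line at each list's median. Srxn1 at 1.00 and Sephs2 at -0.86 are the farthest called genes in 3bKI vs wt.

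Gpx3 was the member with the largest SD over arrays, 0.53 over the 17 arrays of normalization 1 and 0.57 over the 16 of normalization 2. The genes most like it after subtracting each gene's wt mean, by the mean absolute difference over arrays, were Smtn (0.20), Phf11d (0.20) and Racgap1 (0.21) in normalization 1, where the median of all other genes was 0.40. In normalization 2 they were the matrix metalloproteinase gene Mmp2 (0.19), Igsf23 (0.19) and 1810053B23Rik (0.22), beside a median of 0.43. No gene was shared between these short lists.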

How the data were processed

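Total RNA was extracted with Trizol and 5 ug of it was made into biotin-labelled cRNA for Affymetrix arrays, per the labels' protocols. The deposited table holds log2 expression values per probe set, which the authors summarised and normalized in 2 separate runs, per the labels; the method and the genome build are not given in the sources used here. The table has 33 columns from 21 arrays. For the 12 arrays in both runs, the median shift of a member between runs was -0.02 (Gpx1) to -0.12 (Gpx3), so tests stayed within a run. Of 45101 probe sets, 64 are array controls, 34945 carried 1 symbol, 932 several and 9160 none here.

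Each comparison was fitted on its 2 groups with limma 3.58.1 (lmFit, eBayes) in R 4.3.3, two-sided, with Benjamini-Hochberg adjustment over 18193 genes. The fit was run on simulated data with independent normal noise for each gene. That run checks the code and carries no reading about the calls in these arrays. Errors after a mean are SD and errors after a difference are moderated SE. Nothing in the labels says more of the samples' origin than their numbers, so p-values measure the spread between these samples, and the number of arrays limits precision.

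The members, lists, tests and alternatives were chosen with earlier results of these data known. All members were named, and from each list the called genes, at most 3 per direction, or the gene of lowest p. Sex was read from Xist (limit 10) and the mean of 2 Y-linked genes (limit 5). Alternatives were quantile normalization, median centring, a filter on the 40% of genes of lowest mean, other probe set rules, all 3 groups in a fit, array weights, eBayes with trend and robust settings, the beta-actin 3'/5' ratio or sex as a covariate, a replicate block, leaving out arrays and the other run.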

Additional observations from a re-analysis of the deposited data

Results flagged for a closer look

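In the 1KI tumours, replicate 4 had the highest Gpx3 value, 9.17, and its gap to the next tumour was 0.719 of the range of the 5 values. In the 3bKI tumours, replicate 4 had the highest Prdx2 value on the chosen probe set, 10.77, with a gap of 0.834 of the range of the 4 values. A single array far from its group was looked for in 42 groups of values, and chance gives about 1 such array in 20 groups.

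Prdx2 differed from the wt mean by 0.11 in 1KI and by -0.17 in 3bKI. The 1KI tumours lay above the wt mean of their normalization, but replicates 2 and 3 by only 0.0005 and 0.005. The 3bKI tumours lay below their own wt mean, replicate 4 closest, at -0.04. The difference between the kinds of tumour was not tested, because the groups come from separate normalizations. In addition, the second probe set of Prdx2 lay the other way in 3bKI.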

How the results depend on the processing

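No alternative changed the direction of Gpx4 in a tumour comparison. In 1KI vs wt it was 0.42 to 0.70 over 24 alternatives (adjusted p = 0.00718 to 0.273), called in 7, and in 3bKI vs wt 0.31 to 0.51 over 22 (0.00908 to 0.227), called in 11. The number of arrays limits the precision. For each change below the cause was not tested. The count of members called in 1KI vs wt fell from 1 to 0 with quantile normalization, median centring, the mean of a gene's probe sets, every probe set tested, trend and robust settings, the replicate block and without 1KI replicates 3 and 4. In 3bKI vs wt the count was 3 with all 3 groups in the fit, 2 with array weights, and 0 with the beta-actin ratio, sex or the replicate block. In 3bKI vs 3aKO, where it was 0, it was 1 with quantile normalization, the mean of probe sets or array weights and 2 with all 3 groups. Leaving out 1 array at a time gave 0 to 1 members in 1KI vs wt, 0 to 2 in 3bKI vs wt and 0 to 1 in 3bKI vs 3aKO, with 2 to 69, 49 to 848 and 490 to 1440 of all genes called.

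Counts over all genes that moved by over 1.5 times were these. In 1KI vs wt, 44 genes became 1 with the replicate block, 313 with all 3 groups, 69 with array weights, 70 with the beta-actin ratio, 93 with sex and 72 of 45037 probe sets. In 3bKI vs wt, 377 became 745 with median centring, 996 with all 3 groups, 766 with array weights, 694 with the replicate block, 67 with sex and 0 with the beta-actin ratio. In 3bKI vs 3aKO, 1671 became 844 with quantile normalization, 3435 probe sets, 50 with the replicate block, 145 with sex and 0 with the beta-actin ratio. In 1KI vs 3aKO, 0 became 57 with all 3 groups and at most 23 otherwise, and in 3aKO vs wt at most 2. Same-numbered arrays had deviations that correlated at -0.469 to 0.443 over the 5 comparisons. These values were not set against those of differently numbered arrays, so they cannot tell whether the numbers pair the samples. With the replicate block Gpx4 was 0.62 in 1KI vs wt (limma adjusted p = 0.273) and 0.33 in 3bKI vs wt (adjusted p = 0.112). The block also ended the calls of Gstm3 and Nfe2l2 in 1KI vs wt, of Msrb1 and Cbr3 in 3bKI vs wt, and of Srxn1, Glrx2, Selenoo, Sod1, Gpx7 and Secisbp2 in 3bKI vs 3aKO. With the beta-actin ratio every 3bKI call among the pathway genes was lost, as was every 3bKI call among all genes. The ratio was 0.70 to 0.87 in 3bKI and 1.06 to 1.35 in 3aKO, without overlap. In 3bKI vs 3aKO ratio and group can thus hardly be told apart, and the lost calls carry no reading about these genes.

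Signs that turned belong to differences near 0, to Gpx1, to Prdx2 or to Secisbp2. The main Gpx1 differences were -0.31 in 1KI vs wt, -0.36 in 1KI vs 3aKO and -0.26 in 3bKI vs 3aKO. Median centring gave -0.031 for Gpx2 in 1KI vs wt, -0.00032 for Prdx2 in 1KI vs 3aKO and -0.061 for Prdx3 in 3bKI vs wt. Quantile normalization gave -7.7e-05 for Gpx3 in 3aKO vs wt and 0.047 for Prdx3 in 3bKI vs 3aKO. The mean of the probe sets gave, for Prdx2, -0.032 in 3aKO vs wt, -0.052 in 1KI vs wt, -0.020 in 1KI vs 3aKO, 0.57 in 3bKI vs wt and 0.61 in 3bKI vs 3aKO, and 0.19 for Secisbp2 in 3bKI vs 3aKO. The replicate block gave -0.030 for Gpx2 in 1KI vs wt. Without 1KI replicates 3 and 4, Gpx1 was 0.060 against wt and 0.0100 against 3aKO, and Prdx2 was -0.015 against 3aKO. The beta-actin ratio gave -0.026 for Prdx3 in 3bKI vs wt, and 0.34 for Prdx3 and 0.035 for Gpx1 in 3bKI vs 3aKO. Sex gave -0.057 for Prdx3 in 3bKI vs wt and 0.057 for Gpx2 in 3bKI vs 3aKO, where array weights gave 0.0025. Leaving out 1 array gave -0.060 to 0.11 for Gpx3 in 3aKO vs wt, -0.025 to 0.038 for Gpx2 in 1KI vs wt, -0.032 to 0.071 for Prdx2 in 1KI vs 3aKO, -0.021 to 0.040 for Prdx3 in 3bKI vs wt and -0.077 to 0.035 for Gpx2 in 3bKI vs 3aKO.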
